A study of Apis mellifera with 138 samples.

Results

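The 200 shortest genes expressed in the honey bee brain were examined across 2 tissues, 3 colonies and 2 oral treatments. A gene was taken as expressed in the brain if it had a level above 1 CPM (counts per 1000000 counts on bee genes) in at least 32 of the 67 brain libraries used, all of which had a viral share of counts under 0.5%. The members' levels given below are CPM after each library's total was scaled by a normalization factor. Treatment and colony levels use factors from each tissue alone and tissue comparisons use joint factors, so values of a gene differ slightly. Mitochondrial genes were set aside, which left 9106 of the 12332 bee genes in the files, and these were ordered by the length of the counted span from gene start to gene end, introns included. The 200 members had spans of 73 to 836 bases (median 669), against a median of 4291 bases over the 9118 genes tested in the brain. LOC727055, at 836 bases, was the last member, and LOC107964436, at 838 bases, was the first gene outside, with median brain levels of 23.7 and 15.1 CPM. The order used length and brain expression alone, so the rule used no difference between treatments or colonies. Expression was required in the brain and not in the fat body, so the choice was not neutral between the tissues.

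Very short genes of insects mix several kinds of product. Many encode small subunits of large complexes, such as ribosomal proteins of the cytosol and of mitochondria, subunits of the respiratory chain, and the small proteins that carry others across the mitochondrial membranes. Others are long noncoding RNAs (lncRNAs), small nuclear RNAs of the splicing machinery, or the hairpin precursors from which microRNAs (miRNAs), short RNAs that repress messenger RNAs, are cut. A library made from polyadenylated RNA does not capture a mature miRNA, so the counts on a miRNA gene are reads from longer transcripts that cover its hairpin.

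RNA-seq was performed on the brain and the abdominal fat body of single worker bees of Apis mellifera. Each bee was fed 1000 pmol of an antagomir (a modified antisense oligonucleotide that inhibits a miRNA) in 30% sucrose at 3 days of age and was collected 48 h later, at 5 days. Bees received either antag-305, directed against ame-miR-305-5p, or the control antag-missense, and no library from untreated bees was used here. The libraries kept were 35 antag-305 and 32 antag-missense brains and 35 antag-305 and 30 antag-missense fat bodies, from the colonies R2, R3 and R42, whose queens had each been inseminated by a single drone. A colony was also a trial of its own, and these cannot be told apart. The study's question was whether inhibition of this miRNA changes gene expression in the 2 tissues. The gene of the targeted miRNA, Mir305, had 0 counts in all 67 brain and 65 fat body libraries and lies inside another span on the same strand, so these counts do not check the treatment.

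Between 5825129 and 49150105 counts fell on bee genes in a brain library (median 13836960), and between 5346264 and 29204597 in a fat body library (median 12906069). The sum of 4 neuronal genes (Syt1, Syx1A, brp and Cac) ran from 4040 to 5879 CPM in the brain libraries and from 28.6 to 317.2 CPM in the fat body libraries. Of 6 genes listed as fat body markers, the storage protein gene Hex70a had 332.7 to 10066 CPM in the fat body and at most 68.1 CPM in a brain library. Vitellogenin (Vg) had medians of 104.8 CPM in the fat body and 1.32 CPM in the brain, whereas the transferrin gene Tsf1 was higher in the brain, with medians of 603.9 and 156.5 CPM, and Hex70c had a fat body median of 0.847 CPM. The share of counts on mitochondrial genes varied without a gap from 0.928 to 2.62% over the brain libraries. It was over 1.8%, a limit chosen after the data were seen, in 2 of the 35 antag-305 libraries and in 9 of the 32 antag-missense libraries, and totals under 10000000 counts were found in 1 and 4 libraries. The counts of members called for treatment in the brain are given with and without these libraries.

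Of the 200 members, 140 were annotated as protein-coding, 36 as lncRNA, 19 as miRNA, 3 as miscellaneous RNA and 2 as small nuclear RNA. Spans of the 140 coding members ran from 309 to 836 bases, and those of the 19 miRNA genes from 73 to 121 bases. Another annotated span overlapped a member on the same strand in 15 cases and on the opposite strand in 50, and 137 members overlapped none. The strand setting of the counting is not given in the sources used here, so a member and a gene that overlaps it on the other strand may share reads. No miRNA member lay in a span on its own strand, although 108 of all 238 miRNA genes in the files did. Only 26 members had a gene symbol other than a LOC number, 19 of them miRNA genes.

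The 5 shortest members were all miRNA genes. On the HAv3.1 assembly, Mir6047b lies on chromosome 3 at 301753 to 301825 (73 bases), with a gene on the opposite strand. Mir9889 lies on chromosome 9 at 10157778 to 10157850 (73 bases), Mir9883 on chromosome 8 at 843991 to 844066 (76 bases), Mir6058 on chromosome 7 at 3758281 to 3758357 (77 bases) and Mir9871 on chromosome 1 at 25056231 to 25056308 (78 bases). These 4 overlapped no other span.

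Per kilobase of span, the members had a median level of 15.8 CPM in the brain, against 8.65 CPM per kilobase over all tested brain genes. For the next 200 genes by length it was 17.6, so this was not particular to the members. Mir6058 had the highest level, 3247 CPM per kilobase, followed by Mir6037 with 402.8 and Mir9888 with 275.7. The next were Uqcr11, a subunit of respiratory complex III, with 241.2 CPM per kilobase, and LOC552809, named as the cytochrome c oxidase subunit NDUFA4, with 198.9. Levels varied more between bees than for longer genes. The biological coefficient of variation estimated by edgeR, the relative spread between bees beyond counting error, had a median of 0.345 for the members, 0.314 for the next 200 genes by length and 0.183 for all tested genes. Among the members it was lowest for Coq7, an enzyme of ubiquinone synthesis, at 0.0952.

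All members together took 0.253 to 0.833% of the counts of a brain library (median 0.314%) and 0.838 to 1.89% of those of a fat body library (median 1.15%). The 2 ranges did not overlap. Coding members made up most of both shares, with a brain median of 0.25% and a fat body median of 1.1%. The miRNA spans took a median of 0.0362% of brain counts and 0.00274% of fat body counts. Most of the brain share was on Mir6058, with medians of 251.4 CPM in the brain and 0.499 CPM in the fat body. Of the 7 miRNA spans tested between the tissues 4 were lower in the brain and 3 higher, so the contrast in shares does not describe the spans at large. Within the brain, the share of all members lay between 0.257 and 0.584% with antag-305 (median 0.308%) and between 0.253 and 0.833% with antag-missense (median 0.346%), so the groups overlapped over most of their range. It exceeded 0.5% in 1 of 35 antag-305 and in 8 of 32 antag-missense libraries. In the fat body the medians were 1.17 and 1.13%.

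**Figure D1:**
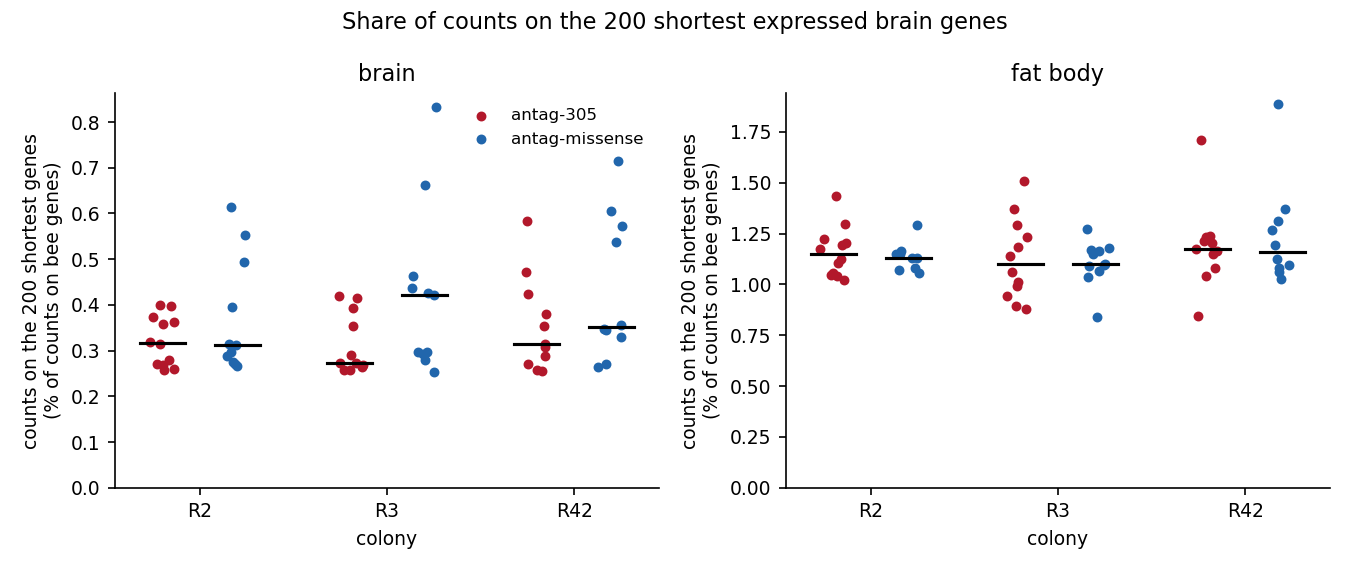
Share of a library's bee gene counts on the 200 shortest expressed brain genes (vertical axis, %) by colony, with 1 point a library, antag-305 in red, antag-missense in blue, and a black line at each group's median. Brain libraries sit between 0.253 and 0.833% with a tail of high libraries that is mostly antag-missense, and fat body libraries sit between 0.838 and 1.89%.

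The short coding genes moved together from one brain library to the next. For each library the median deviation of the 140 coding members from their means (in log2 of CPM plus 0.5) was computed, and it ran from -0.39 to 0.94. Spearman correlation of a coding member with the median of the others over the 67 libraries was positive for 119 of the 140 and over 0.5 for 89. For the miRNA spans it was below -0.5 in 12 of 19 and positive in 3, and for the lncRNAs it was over 0.5 in 13 and below -0.5 in 5 of 36. All of these values share libraries and normalization, and they are given as descriptions.

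Over the 67 brain libraries the deviation of the coding members had a Pearson correlation of -0.911 (Spearman -0.892) with that of the miRNA spans, and -0.89 without the 2 libraries farthest from the median. Within the colonies it was -0.898 in R2 (23 libraries), -0.965 in R3 (23 libraries) and -0.9 in R42 (21 libraries). The correlation with the next 200 genes by length was 0.992. With the 200 longest genes it was -0.711, and with the total count of the library -0.493. The share of counts on the members had a correlation of 0.91 with the share on mitochondrial genes, and of 0.9, 0.964 and 0.938 within R2, R3 and R42. The mitochondrial share itself ran from 0.958 to 1.91% with antag-305 (median 1.33%) and from 0.928 to 2.62% with antag-missense (median 1.52%).

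In the fat body 12 of the 19 miRNA spans did not pass the expression filter, so no relation between coding members and miRNA spans is given there. The members' share of counts had a correlation of 0.518 with the mitochondrial share over 65 fat body libraries (0.436 without the 2 farthest). Across the 65 bees with both tissues, the coding members' deviation in the brain had a correlation of -0.0146 with their deviation in the fat body, with values of -0.0304, 0.0351 and -0.154 within R2, R3 and R42. Neither the pooled value nor any colony showed a close relation between the tissues of a bee.

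**Figure D2:**
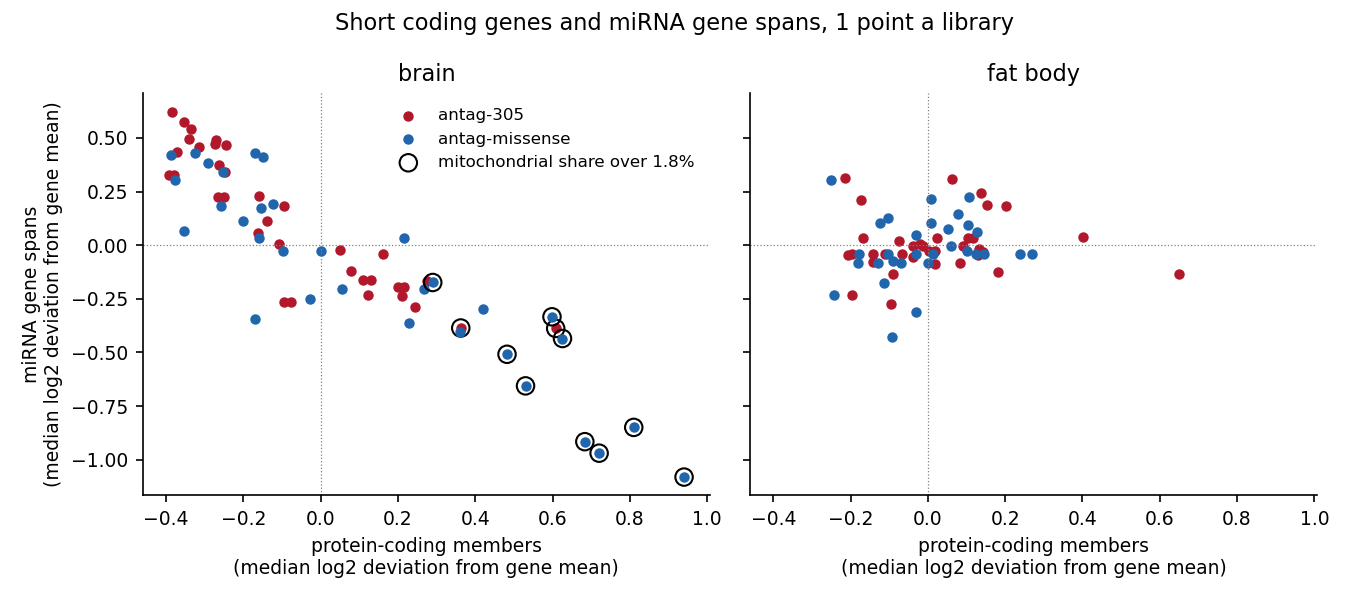
Median log2 deviation of the 19 miRNA spans (vertical axis) against that of the 140 coding members (horizontal axis), with 1 point a library, in the brain (left) and the fat body (right); red is antag-305, blue is antag-missense, and rings mark brain libraries with a mitochondrial share over 1.8%. Brain points fall along 1 descending line (correlation -0.911) with the ringed libraries at its lower right end; in the fat body 12 of the 19 spans did not pass the expression filter, so the 2 panels cannot be compared.

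In the brain, the short genes were lower with antag-305 far more often than higher. Of the 200 members 36 were lower and 2 higher at an FDR (Benjamini-Hochberg adjusted P over all 9118 tested genes, edgeR's quasi-likelihood test with colony in the model) under 0.05. That is 19% of the members, beside a percentage of 11.3 over all tested genes, of which 5.87% were lower and 5.47% higher. The median log2 fold change of the members, antag-305 relative to antag-missense, was -0.15, and that of all tested genes was 0.00. The coding members held 33 of the lower calls and both higher ones (of 140, median -0.23), the lncRNAs held 3 lower calls (of 36, median -0.09), and none of the 19 miRNA spans, 3 miscellaneous RNAs or 2 small nuclear RNAs passed.

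These counts depended on the libraries and on the model. Without the 11 brain libraries with a mitochondrial share over 1.8%, leaving 33 antag-305 and 23 antag-missense libraries, 0 of the 200 members passed in either direction (4 had an unadjusted P under 0.05), beside 0.592% of all tested genes lower and 1.61% higher, and the members' median log2 fold change was -0.02. All 9 libraries with a member share over 0.5% are among these 11, so this choice also removed the libraries in which the members were highest, and it does not tell what the calls rest on. With the log2 mitochondrial share as a covariate, which likewise follows the members' own share, 0 passed (6 unadjusted, median 0.01). Without the libraries under 10000000 counts 0 passed (25 unadjusted, median -0.10), beside 1.06% of all tested genes lower and 2.59% higher.

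Without colony R3 0 passed (36 unadjusted, median -0.14), beside 0.0329% of all tested genes lower and 0.0768% higher. Without R2 11 were lower (4.09% of all tested genes) and without R42 6 were lower (1.9%). With per-library offsets on gene length 5 members were lower and 3 higher (3.44 and 4.38% of all tested genes), and the median was 0.05. These offsets were fitted to each library's own levels by length, so they remove any difference that follows length, whatever its source. The members were chosen by length, so a median near 0 was built into this fit, and it does not tell what the calls rest on. limma-voom with sample quality weights called 0 lower and 2 higher (30 unadjusted), beside 2.22 and 4.28% of all tested genes, and DESeq2 called 54 lower and 3 higher, beside 7.94 and 6.73%. With the brain libraries removed for viral load put back, all of them antag-missense, fewer members were called in either direction. The percentages are given at the end.

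LOC727294, named as the homolog of chibby (known in flies and mammals as an inhibitor of Wnt signaling), had the smallest P. It lies on chromosome 14 at 10431627 to 10432451 and overlaps no other span. Its level ran from 8.77 to 51.7 CPM with antag-305 (median 14.2) and from 11.4 to 129.1 CPM with antag-missense (median 17.9). The groups overlapped, with 15 of 35 antag-305 bees above the antag-missense median, and the highest libraries were antag-missense. Its log2 fold change was -0.89 ± 0.23 (SE, FDR 0.0114), with -0.64, -1.19 and -0.86 in R2, R3 and R42, and -0.11 without the libraries of high mitochondrial share.

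LOC551318, which carries no functional name here, lies on chromosome 1 at 8246180 to 8246858. It ran from 35.3 to 143.8 CPM with antag-305 (median 58.2) and from 36 to 237.5 CPM with antag-missense (median 76.7), and 7 of 35 bees fed antag-305 exceeded the median of the controls. Its log2 fold change was -0.55 ± 0.15 (SE, FDR 0.0149), and -0.14 without the libraries of high mitochondrial share. The ranges overlapped from their lowest values upward.

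LOC726016, on chromosome 10 at 6314659 to 6315296, is named as a homolog of chromosome transmission fidelity protein 8, which in yeast acts in sister chromatid cohesion. It had 2.61 to 12.1 CPM with antag-305 (median 5.36) and 2.78 to 29.2 CPM with antag-missense (median 7.92), a log2 fold change of -0.61 ± 0.17 (SE, FDR 0.0169). LOC725240, on chromosome 10 at 5880997 to 5881813, is named as Tim9, a chaperone of the mitochondrial intermembrane space that guides proteins to the inner membrane. It had 2.32 to 16.2 CPM with antag-305 (median 5.03) and 2.64 to 29.4 CPM with antag-missense (median 6.44), a log2 fold change of -0.75 ± 0.21 (SE, FDR 0.0176). Both were lower in each of the 3 colonies, and their estimates without the libraries of high mitochondrial share were -0.19 and -0.17.

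The lncRNA LOC113219065, on chromosome 11 at 14244593 to 14245126, overlaps a gene on the opposite strand. It ran from 1.53 to 7.58 CPM with antag-305 (median 3.16) and from 1.21 to 11.1 CPM with antag-missense (median 3.77), with a log2 fold change of -0.51 ± 0.14 (SE, FDR 0.0177), and -0.13 without the libraries of high mitochondrial share. The lowest estimate of any member, -1.26 ± 0.40 (SE, FDR 0.0327), belonged to another lncRNA, LOC113219260, of 222 bases. Without the libraries of high mitochondrial share it was -0.14. LOC113219260 also overlaps a gene on the opposite strand, with which it may share reads. Its levels spread widely, from 0.24 to 19.8 CPM with antag-305 (median 1.94) and from 0.265 to 52.4 CPM with antag-missense (median 3.97).

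The 2 higher members both bear names of chromatin proteins. LOC726447, named as histone H2B, on chromosome 1 at 15185754 to 15186376, ran from 3.71 to 9.86 CPM with antag-305 (median 6.75) and from 2.31 to 8.81 CPM with antag-missense (median 5.91). Its log2 fold change was 0.26 ± 0.09 (SE, FDR 0.0440), with 0.40 in R2, 0.40 in R3 and -0.04 in R42. LOC102653839, named as the probable histone-lysine N-methyltransferase set-23, overlaps another gene on its own strand, and its value is uncertain for that reason. It ran from 24 to 40.5 CPM with antag-305 (median 28.7) and from 14.9 to 34.2 CPM with antag-missense (median 27.5), with a log2 fold change of 0.14 ± 0.05 (SE, FDR 0.0491). Neither passed without the libraries of high mitochondrial share, where the estimates were 0.19 and 0.08.

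**Figure D3:**
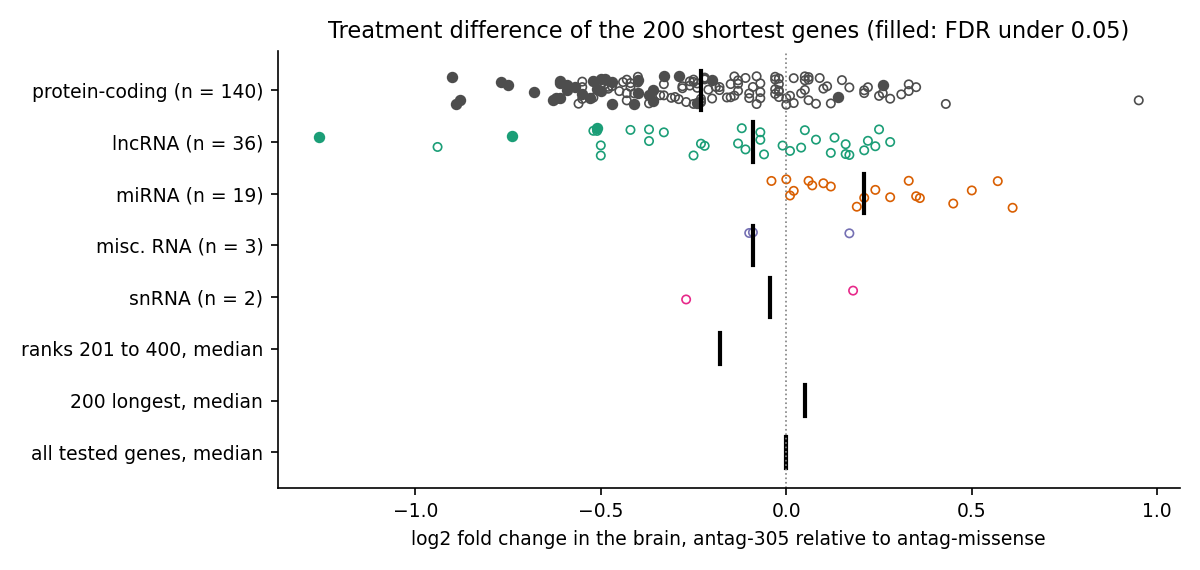
Log2 fold change in the brain (horizontal axis, antag-305 relative to antag-missense) of the 200 members by biotype, with 1 point a gene, filled where the FDR is under 0.05, and a black bar at each median; the lower 3 rows give medians of comparison sets. The coding median is -0.23, the miRNA median 0.21, that of the next 200 genes by length -0.18 and that of the 200 longest genes 0.05.

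Descriptions were at hand for 31 members, 3 of them as uncharacterized proteins, and only for genes the study listed as changed in the brain. The groups below are thus chosen by their change, and their direction is no evidence about a pathway. Members named as subunits of the respiratory chain or of ATP synthase numbered 4, one each of complexes I, III and IV and of ATP synthase, with log2 fold changes from -0.52 to -0.33. Uqcr11, of complex III, ran from 113.8 to 496.2 CPM with antag-305 (median 175.1) and from 133.3 to 951.5 CPM with antag-missense (median 200.9), with a log2 fold change of -0.52 ± 0.17 (SE, FDR 0.0351). It was -0.02 without the libraries of high mitochondrial share and 0.05 with that share as a covariate.

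Proteins of the 2 kinds of ribosome made up a further group. The 5 members named as mitochondrial ribosomal proteins had log2 fold changes from -0.49 to -0.20. Rpl39, of the large cytosolic subunit, ran from 37.8 to 427.5 CPM with antag-305 (median 90.9) and from 37.8 to 839.8 CPM with antag-missense (median 139.4), and 13 of 35 antag-305 bees were above the control median. Its log2 fold change was -0.90 ± 0.28 (SE, FDR 0.0281), and -0.14 without the libraries of high mitochondrial share. It overlaps a gene on the opposite strand. Rpl41, of the same subunit, did not pass, at -0.31 ± 0.12 (SE, FDR 0.0799), and LOC551479, named as ribosomal protein S21, was at -0.59 ± 0.21 (SE, FDR 0.0476), and at -0.09 without the same libraries.

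Tom7, a small subunit of the translocase of the outer mitochondrial membrane, is the shortest coding member with a symbol, at 393 bases. It ran from 7.29 to 49 CPM with antag-305 (median 13.4) and from 8.71 to 67 CPM with antag-missense (median 15.9), with a log2 fold change of -0.53 ± 0.18 (SE, FDR 0.0480), and -0.01 without the libraries of high mitochondrial share. LOC100577073, named as the precursor of pigment-dispersing hormone, the neuropeptide of clock neurons in insects, ran from 5.68 to 21.8 CPM with antag-305 (median 13) and from 10.6 to 30.2 CPM with antag-missense (median 15.2). Its log2 fold change of -0.29 ± 0.09 (SE, FDR 0.0318) became -0.10 without those libraries. Coq7 (-0.03 ± 0.03, FDR 0.498), Nrk1 (0.06 ± 0.05, FDR 0.426) and CSP1, a small secreted chemosensory protein (0.21 ± 0.25, FDR 0.555), did not pass.

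Other genes of these families were found by symbol among all tested genes. Of 7 genes with symbols of cytosolic ribosomal proteins 2 were lower in the brain with antag-305, Rpl39 and RpL32 (1252 bases, -0.35 ± 0.11, FDR 0.0345), and the median log2 fold change was -0.24. RpL35 (1852 bases) was at 0.02 ± 0.04 (FDR 0.788). Of 7 nuclear genes of the respiratory chain and ATP synthase 4 were lower, and they were the 4 with spans of 770 to 1180 bases, namely Uqcr11, Ndufs5, Ndufb2 and Cox6c. The other 3, Ndufs1, ATP5G2 and Cox6b1, with spans of 2813 to 4071 bases, had estimates from -0.19 to 0.04 and did not pass. Cox6b1 (3746 bases) missed the threshold narrowly, at -0.19 ± 0.07 (SE, FDR 0.0579). In the ribosomal list the shortest gene, Rpl41 (681 bases), did not pass (FDR 0.0799). A role of length in either list was not tested. With length offsets, and without the libraries of high mitochondrial share, 0 genes of either list passed. The offsets remove any difference that follows length, so the count with them does not tell what the calls rest on. Of 11 genes encoded by the mitochondrial genome 2 were lower, ND6 (-1.40 ± 0.40, FDR 0.0181) and COX3 (-1.10 ± 0.38, FDR 0.0474), with spans of 504 and 780 bases. The shorter ND4L (264 bases, FDR 0.084) and ND3 (354 bases, FDR 0.124) did not pass. With length offsets 0 of the 11 passed (median log2 fold change -0.31). Without the libraries of high mitochondrial share 0 passed (median 0.05, 9 above 0), and with that share as a covariate 0 passed (median 0.15). These genes are themselves part of that share.

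None of the miRNA spans was called by edgeR (3 had an unadjusted P under 0.05), and DESeq2 called 1 higher. Of the 19, 18 had a log2 fold change above 0, with a median of 0.21. With the mitochondrial share as a covariate 9 were above 0 and 10 below, with a median of -0.02, and without the libraries of high share 14 were above 0, with a median of 0.10. In 13 of 19 (68.4%) the estimate was above 0 in each colony fitted alone, as in 26.9% of all tested genes. Mir9884 had the smallest P, with a median of 4.74 CPM with antag-305 and 4.22 CPM with antag-missense and a log2 fold change of 0.33 ± 0.13 (SE, FDR 0.0702), and 0.19 without the libraries of high mitochondrial share. Mir6058 ran from 89.3 to 377.1 CPM with antag-305 (median 270.3) and from 102.6 to 395.3 CPM with antag-missense (median 245.5), a log2 fold change of 0.01 ± 0.12 (SE, FDR 0.942). Mir6037 was at 0.07 ± 0.05 (SE, FDR 0.283) and Mir9888 at 0.19 ± 0.12 (SE, FDR 0.266).

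Across colonies, 106 of the 200 members (53%) had an estimate below 0 in each of R2, R3 and R42 fitted alone, as did 30.9% of all tested genes. Single colonies gave few calls. No member was called lower in R2 alone or in R42 alone, where 0.011 and 0.0329% of all tested genes were, and 1 was called lower in R3 alone, where 1.22% of all genes were. The interaction of treatment and colony was called in 0 of 200 members by edgeR (0.428% of all tested genes), with 5 at an unadjusted P under 0.05, and in 0 by DESeq2.

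The direction followed span length beyond the members. Among the next 200 genes by length (838 to 1025 bases) 42 were lower and 3 higher, with a median of -0.18, and among the 200 longest genes (169838 bases and more) 1 was lower and 12 were higher, with a median of 0.05. In bins of 200 genes, the share called lower was between 18 and 21% in the first 4 bins (up to 1346 bases) and between 0.5 and 1.5% in the last 5 (31192 to 244157 bases). Genes longer than that did not fill a bin and are left out of these shares. Within the members, the 100 shortest, which hold all 19 miRNA spans, had 10 lower calls and a median of 0.00. The 137 members with no overlapping span had 29 lower calls and 1 higher call.

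**Figure D4:**
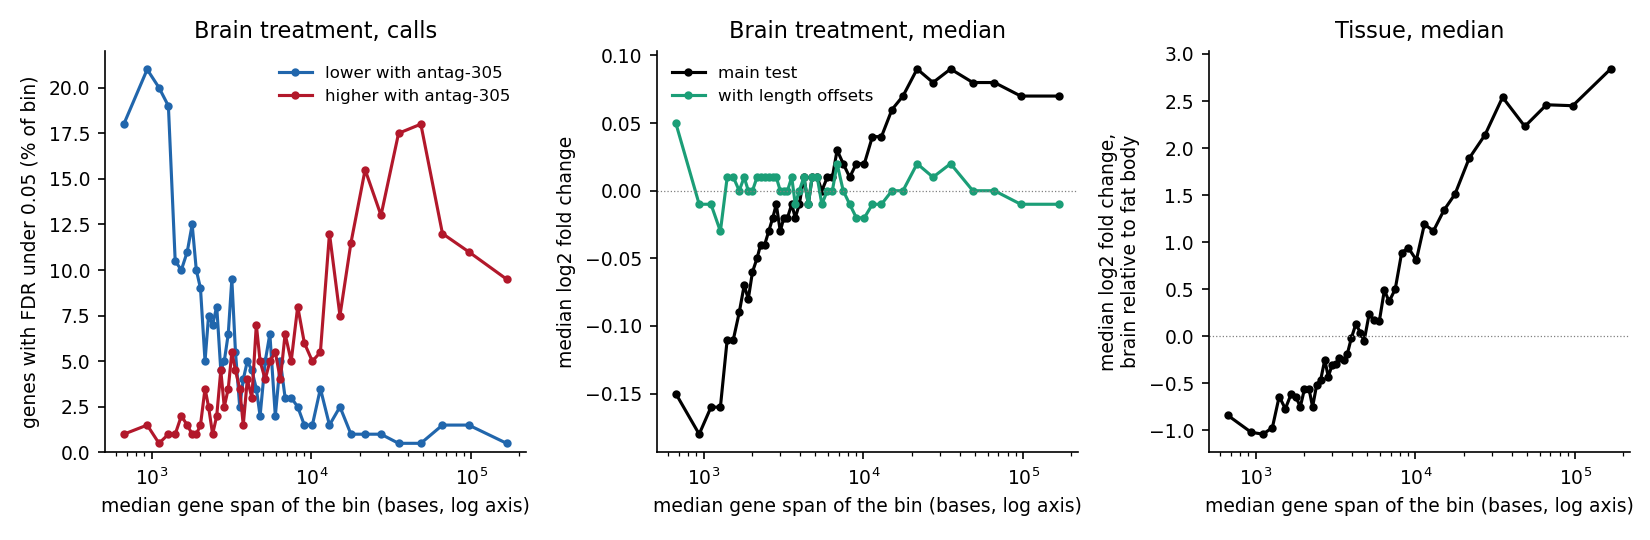
Genes expressed in the brain in bins of 200 by span length (horizontal axis, median span in bases, log scale): percentage called lower (blue) or higher (red) with antag-305 (left), median log2 fold change of the treatment without (black) and with (green) length offsets (middle), and median log2 fold change of brain relative to fat body (right). The first bin, the members, has 18% lower and 1% higher calls, a treatment median of -0.15 (0.05 with offsets) and a tissue median of -0.84. The offsets were fitted by length, so medians near 0 are built into the green line. The bins end at 244157 bases, and longer genes are in no bin.

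In the fat body, no member was called for treatment. Of the 200 members 158 passed the expression filter there (more than 1 CPM in at least 30 libraries), among them 129 of the 140 coding genes, 18 of the 36 lncRNAs and 7 of the 19 miRNA spans. By edgeR 0 of 158 passed, beside 0.0678% of all 8844 tested genes (0.0339% higher and 0.0339% lower), with 25 members at an unadjusted P under 0.05. DESeq2 called 0 and limma-voom with sample quality weights called 1. The median log2 fold change was 0.03, against 0.01 over all tested genes, and the estimates ran from -0.42 to 0.40. In colony R42 alone 9 members were called lower, but 8.81% of all tested genes were as well, and 0 were in R2 alone or in R3 alone (0 and 0.0226% of all tested genes).

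The treatment effect was compared between the tissues directly in the 65 bees with both. The interaction of treatment and tissue was called in 0 of 158 members by edgeR with the bee as a block (0.338% of 8282 tested genes, 0.29% higher and 0.0483% lower), with 51 at an unadjusted P under 0.05. A difference in the members' response between brain and fat body was therefore not shown by this test. For Rpl39 the interaction was -0.49 (FDR 0.592), for Uqcr11 -0.43 (FDR 0.266) and for Tom7 -0.47 (FDR 0.320), each as the treatment's log2 fold change in the brain minus that in the fat body.

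Between the tissues the short genes were mostly lower in the brain. In the 65 bees, with each bee as a block, 119 of the 158 members tested in both tissues were lower in the brain and 30 were higher (FDR under 0.05, edgeR). Over all 8282 tested genes 93.3% were called, 46% lower and 47.3% higher. The members' median log2 fold change, brain relative to fat body, was -0.84, that of all tested genes was 0.03 and that of the 200 longest genes was 3.08. For the next 200 genes by length it was -1.02, with 134 of 180 lower and 28 higher, so the direction was not particular to the members. Coding members were lower in 105 and higher in 17 of 129 cases, while the 18 lncRNAs split evenly with 8 each and the 7 miRNA spans had 4 lower and 3 higher. In these whole-tissue samples fewer cells of a type and less RNA per cell cannot be told apart.

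The count depended on the scaling and on length. With scaling factors from the longer genes only, the median of all genes moved from 0.03 to -0.89, and 139 members were lower and 13 higher (65.1 and 30% of all tested genes). With offsets on gene length 60 were lower and 82 higher (46.9 and 46% of all tested genes), with a median of 0.24, and the coding members were split into 57 lower and 60 higher. The offsets also remove any tissue difference that follows length, so this fit does not tell what the main counts rest on. The mitochondrial share of counts was 0.928 to 2.62% in the brain and 4.55 to 12.4% in the fat body, and its part in this comparison was not tested. Without the bees whose brain library had over 1.8%, 123 members were lower and 30 higher (46 and 47.3% of all tested genes). Genes of other tissues differed as well. The summed level of 2 muscle genes (TpnT and TpnCIIIa) ran from 199.3 to 2124 CPM in fat body libraries (median 998.3) and from 1.40 to 75 CPM in brain libraries (median 4.24). That of 3 opsin genes of the eye ran from 35.9 to 3202 CPM in brain libraries and that of 5 genes of the hypopharyngeal gland (Mrjp1 to Mrjp5) from 0.539 to 1998 CPM, against at most 10.2 and 6.88 CPM in the fat body. Their part in the difference between tissues was not tested.

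LOC100577725, a coding gene without a functional name here, on chromosome 4 at 7586415 to 7586965, differed most. It had 1784 to 5879 CPM in the fat body (median 2923) and 0.332 to 147.6 CPM in the brain (median 2.11), with no overlap and a log2 fold change of -10.28 ± 0.18 (SE, FDR 4.61e-57). CSP1, on chromosome 8 at 6453930 to 6454392, had 89 to 1554 CPM in the fat body (median 425.1) and 0.901 to 28.3 CPM in the brain (median 3.65), a log2 fold change of -6.73 ± 0.20 (SE, FDR 3.50e-43). Both were lower in the brain in all 65 bees. Of the other chemosensory proteins tested, CSP3 was lower in the brain, at -6.74 (FDR 9.96e-55), and CSP6 and CSP2 were higher, at 3.25 (FDR 2.80e-41) and 1.68 (FDR 7.54e-20).

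LOC410837, on chromosome 2 at 14723583 to 14724378, had 278.2 to 1370 CPM in the fat body and 12.6 to 54.3 CPM in the brain, with a log2 fold change of -4.68 ± 0.09 (SE, FDR 1.05e-55). Rpl41 had 321.8 to 1307 CPM in the fat body (median 586.1) and 32.5 to 137.2 CPM in the brain (median 63.2), with -3.19 ± 0.07 (SE, FDR 2.38e-50), and LOC107965891 had -2.81 ± 0.13 (SE, FDR 2.17e-32). None of the 65 bees had a higher level of any of these in the brain. Cytosolic ribosomal protein genes were lower in the brain in 7 of 7 cases, with a median of -2.82, and in 7 of 7 with length offsets. Uqcr11, at 126.2 to 904 CPM in brains and 164.8 to 441.7 CPM in fat bodies, did not pass (-0.15 ± 0.08, FDR 0.0910), while the other 6 nuclear respiratory genes were lower in the brain. With length offsets it was higher, at 0.88.

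The members with the largest excess in the brain were mostly noncoding. Mir9888 had 6.53 to 39.1 CPM in the brain (median 22.4) and 0.0949 to 3.55 CPM in the fat body (median 0.991), with a log2 fold change of 4.47 ± 0.13 (SE, FDR 3.26e-43). Mir6037 had 22.5 to 47.4 CPM in the brain and 0.41 to 3.81 CPM in the fat body, at 4.03 ± 0.08 (SE, FDR 1.90e-52). Neither range overlapped, and both spans were higher in the brain in all 65 bees. LOC107965626, a miscellaneous RNA with a gene on the opposite strand, followed at 2.42 ± 0.12 (SE, FDR 5.56e-29), then Mir6067 at 1.85 ± 0.11 (SE, FDR 4.05e-26). The coding gene LOC107964133 was at 1.76 ± 0.09 (SE, FDR 6.75e-28), with 9.98 to 65.9 CPM in the brain and 3.57 to 14.9 CPM in the fat body.

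The other 42 members did not pass the fat body filter and were not tested between tissues. Membership required expression in the brain but set no such condition for the fat body, so a low fat body level in this group is in part set by the choice of genes. The group held 12 of the 19 miRNA spans and 18 of the 36 lncRNAs. Mir6058 had 94.8 to 395.6 CPM in the brain and 0 to 2.35 CPM in the fat body. The lncRNA LOC113218721 had 10.6 to 58.4 CPM in the brain and at most 0.0832 CPM in the fat body, and the precursor of pigment-dispersing hormone, LOC100577073, had 5.88 to 29.2 CPM in the brain and 0.249 to 1.87 CPM in the fat body. Each was higher in the brain in all 65 bees.

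**Figure D5:**
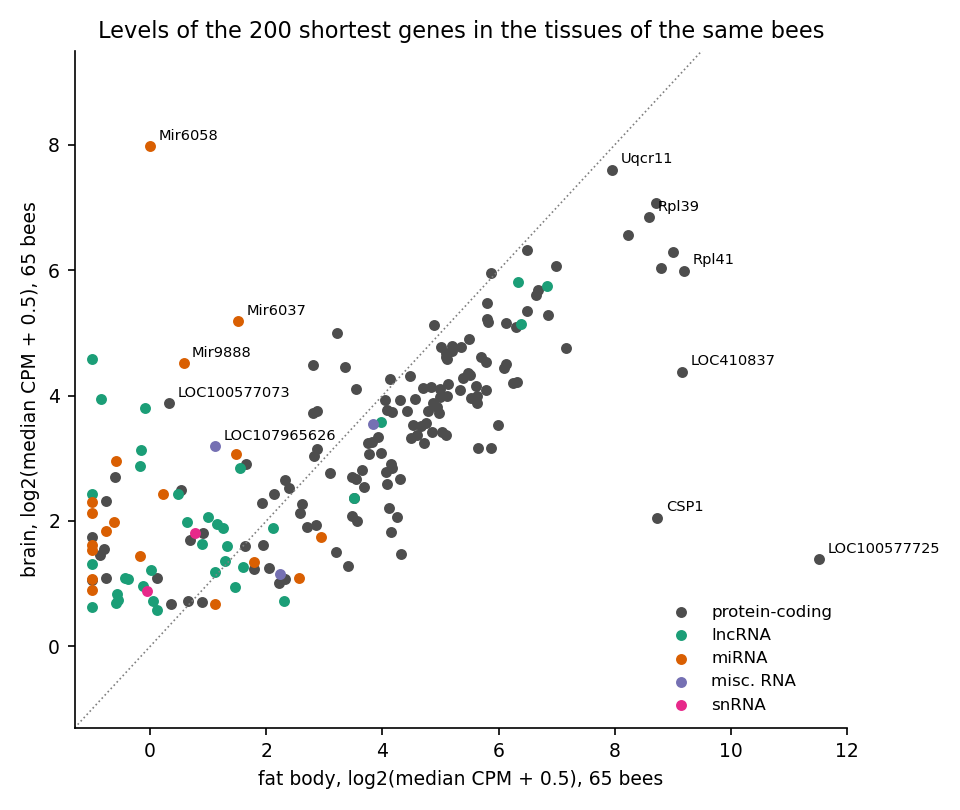
Median level of each of the 200 members in the brain (vertical axis) against the fat body (horizontal axis) of the same 65 bees, both as log2 of CPM plus 0.5, with 1 point a gene colored by biotype and a dotted line of equal levels. Most coding genes lie below the line (105 of 129 tested were lower in the brain), and Mir6058, Mir6037 and Mir9888 lie far above it. Mir6058 did not pass the fat body filter and was not tested between tissues. Membership required expression in the brain alone, so points far above the line are in part set by the choice of genes.

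The colony test called a smaller share of the members than of genes at large. In the brain the test of the colony terms passed in 40 of 200 members (20%), beside 33.6% of all tested genes and 20.5% of the next 200 by length. The share was 20 of 140 among coding members, 12 of 36 among lncRNAs and 7 of 19 among miRNA spans. Members had lower brain levels (median 7.99 CPM, against 36.9 over all tested genes) and a larger coefficient of variation (0.345 against 0.183). A smaller share of calls therefore does not show that colonies differed less in them. Between R3 and R2 6 members were higher and 8 lower in R3 (8.07 and 8.96% of all tested genes), between R42 and R2 10 were higher and 22 lower in R42 (9.79 and 14.1%), and between R42 and R3 9 were higher and 11 lower in R42 (8.68 and 9.93%). Either direction together was called in 17, 23.9 and 18.6% of all tested genes. In the antag-missense bees alone 10 members passed, 5%, beside 11.4% of all tested genes. The smallest P belonged to the lncRNA LOC113219071, on chromosome 11 at 14365529 to 14366168, with 2.12 to 5.30 CPM in R2 (median 3.47), 0.164 to 1.50 CPM in R3 (median 0.893) and 0.247 to 1.31 CPM in R42 (median 0.65). R2 did not overlap R3 or R42 (FDR 1.01e-23), and the log2 fold changes were -1.92 for R3 and -2.28 for R42, each relative to R2. Its neighbor LOC107965252, on the same chromosome at 14364762 to 14365397, also a lncRNA, was lower in R42, at -1.60 relative to R2 and -1.23 relative to R3 (FDR 5.25e-09). Both overlap a gene on the opposite strand.

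LOC102656291, a coding gene on chromosome 4, was lower in R3, with 3.87 to 9.39 CPM (median 6.15) against medians of 11.3 in R2 and 11.7 in R42 (FDR 4.68e-12). LOC102654666, a lncRNA on chromosome 11 that overlaps a gene on the opposite strand, was also lowest in R3, with medians of 14.1, 8.88 and 18.3 CPM in R2, R3 and R42 (FDR 1.49e-06). LOC102653857, a coding gene on chromosome 2, was highest in R3, with medians of 4.07, 5.72 and 3.46 CPM (FDR 2.72e-06). The ranges of the colonies overlapped in all 3 genes. In the antag-missense bees alone all 5 of these members still passed, with FDR from 6.94e-11 to 0.00314.

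In the fat body 58 of 158 members differed between colonies (36.7%), beside 45.4% of all tested genes, and 17 did in the antag-missense bees alone (10.8%, beside 15.9% of all tested genes). Relative to R2 10 members were higher and 5 lower in R3 (6.63 and 7.23% of all tested genes, 13.9% together) and 20 were higher and 3 lower in R42 (11.8 and 4.08%, 15.9% together). Relative to R3 45 were higher and 13 lower in R42 (28.4 and 17.3%, 45.7% together). LOC113218833, described as a transmembrane protein, on chromosome 6 at 91907 to 92685, was lower in R42, with medians of 13.4, 14 and 6.88 CPM in R2, R3 and R42 (FDR 1.87e-07). It was lower in R42 in the brain as well, with medians of 5.70, 7.18 and 2.94 CPM (FDR 3.70e-05). The lncRNA LOC102653949, on chromosome 13 at 6829788 to 6830570, had fat body medians of 2.71, 2.85 and 0.868 CPM (FDR 7.85e-07) and brain medians of 7.34, 5.96 and 3.15 CPM (FDR 1.65e-05). The medians of both genes were lowest in R42 in each tissue. LOC725747 (FDR 2.47e-05) and LOC727473 (FDR 6.83e-05) were highest in R42 in the fat body, and LOC113218829 (FDR 9.02e-05) was highest in R3, with medians of 29.5, 40.4 and 30.6 CPM. Of these 5, LOC725747 overlaps a gene on its own strand and alone did not pass in the antag-missense bees (FDR 0.0581).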

How the data were processed

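RNA-seq was performed by the authors with a stranded mRNA kit on brain and abdominal fat body of single bees. The authors aligned reads to HAv3.1 with STAR 2.7.6a and counted them with featureCounts of Subread 2.0.0. The deposited values are raw counts per gene span and library, for bee genes and 5 virus genomes. Of 138 libraries the 132 that the authors kept were used, and the 6 removed for viral load entered 1 alternative. All 6 were antag-missense libraries, so the removal touched the control group alone. Symbols and biotypes came from RefSeq genes matched by chromosome, start and end (12325 of 12332 genes).

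The tests were run in edgeR 4.0.16 under R 4.3.3, with TMM factors, the legacy quasi-likelihood fit and a Benjamini-Hochberg FDR under 0.05. The filter was over 1 CPM in 32 or more brain libraries (9118 genes) or 30 or more fat body libraries (8844 genes). Treatment and colony were in 1 model per tissue. Tissue and its interaction with treatment were tested in 8282 genes and 65 bees, with each bee as a block. Standard errors are the size of the log2 fold change divided by the square root of F. In simulated data with 200 changed genes 188 were recovered for brain treatment, 143 for fat body treatment, 178 for brain colony and 128 for tissue, each with a simulated log2 change of 0.6. In the same order 196, 152, 185 and 133 genes were called. The changed genes were drawn from all tested genes, and genes were simulated independently of each other. These values therefore do not give the recovery for the members.

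The members and lists were chosen with earlier results of these data known. Lists were planned from gene descriptions, but the reference holds symbols only, so they were made by symbol, and functional names come from the study's table of changed genes. The genes named are the 5 shortest, the 5 highest per kilobase, the 5 called members with the smallest P for treatment and for each colony test, the 5 largest changes between tissues in each direction, and members on symbol lists; LOC551479, LOC100577073, LOC113219260, Coq7, Nrk1, Mir9884, LOC113218721 and genes that are not members were named after their values were seen. The treatments of 1 colony reuse the same bee numbers, with no pairing stated. Alternatives were DESeq2 1.42.0 and its size factors, limma-voom (limma 3.58.1), scaling from longer genes, other filters, libraries and models, each colony left out, loess offsets on length (span 0.5) and other member sets. The fits on mitochondrial share and on depth, and the colony fit on the bees of the paired fit, were added after the data were seen. The members' expression levels are median CPM, on totals scaled by the TMM factors of the fit concerned, with the lowest and highest bee. Sequences of the members were not used here.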

Additional observations from a re-analysis of the deposited data

Results flagged for a closer look

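Groups of 4 to 10 libraries of 1 tissue, treatment and colony were examined for a library far from the others in the share of counts on all members, on coding members, on miRNA spans and on lncRNAs. This gave 12 checks in 3 groups, of which chance would mark about 1 in 20, and the measures overlap. Both marked libraries were antag-missense fat body libraries. Bee 26 of colony R2 had 1.29% of its counts on the members, the next library of its 9 having 1.16%, and 1.25% on the coding members, the next having 1.12%. Bee 23 of colony R42 had 1.89% on the members (next of 10 libraries, 1.37%), 1.81% on the coding members (next, 1.33%) and 0.0744% on the lncRNAs (next, 0.0492%). The second library held 7816472 counts and had 8.30% of them on mitochondrial genes.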

How the results depend on the processing

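For brain treatment, 18% of the members were lower and 1% higher. The percentage lower was 28% with scaling from longer genes (1122 genes lower over all tested genes, against 535), 33% with the colony term on the bees of the paired fit, 10% in the 100 shortest, 8.5% with all libraries, 5.5% without R2, 3% without R42, 2.5% with length offsets, and 0% with limma-voom, without R3, without libraries under 10000000 counts, without those over 1.8% mitochondrial share and with that share as a covariate. The percentage higher was 0.5% with no filter, with no colony term and without R42, and 0% with scaling from longer genes, with all libraries, without R2, without R3, without low totals, without high mitochondrial shares and with the covariate. Deviations from the group mean were correlated between bees of a colony with the same number in both treatments. The median was 0.0383 over 28 brain pairs (-0.642 to 0.601), against 0.0115 for bees of different numbers. In the fat body it was -0.111 over 26 pairs, against 0.0268. Values were over 0.1 in 11 of 28 brain and 8 of 26 fat body pairs. This check cannot settle whether the bees were paired. With the replicate block 0.5% were lower and 0% higher, in 1 and 0 members. In the fat body limma-voom called 0.633% lower. Between tissues 38% were lower and 51.9% higher with length offsets, 44.9 and 10.1% at a log2 change beyond 1, 8.23% higher with scaling from longer genes and 35% higher with no filter. Antag-missense bees alone gave 5% for brain colony and 10.8% for fat body colony. Treatment by tissue gave 3.8% with no replicate block and 0.633% without R42 and with length offsets. The members' median reversed with length offsets in the brain (0.05) and between tissues (0.24), and with the mitochondrial covariate (0.01). The offsets remove any difference that follows length, by which the members were chosen. Tom7 became 0.09 and Uqcr11 0.05 with that covariate, and CSP1 -0.15 without R42. Between tissues Uqcr11 became 0.05 in antag-missense bees and 0.88 with length offsets. The cause was not tested. Over all alternatives, 89 counts stayed within 1.5 times and 36 did not. Of the values of single genes and medians 357 kept their direction and side of the threshold, 88 lost the call, 6 gained one, 7 moved and 8 reversed. Of the 12 genes named for brain treatment, Rpl41 and CSP1 had no call in the main test. The other 10 all lost theirs with limma-voom, with the replicate block, without R3, without low totals and without high mitochondrial shares.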
